A study of Mus musculus with 6 samples.

Results

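The cytosolic heat shock chaperones were followed as 10 genes, picked by symbol from the 34199 gene symbols in the count tables: Hsp90aa1, Hsp90ab1, Hspa8, Hspa1a, Hspa1b, Hspa4, Hsph1, Dnaja1, Dnajb1 and Hsf1. In textbook terms, HSP70 proteins bind unfolded stretches of client proteins in an ATP-driven cycle, J proteins such as DNAJA1 and DNAJB1 bring clients to them and speed ATP hydrolysis, and HSP110 proteins exchange their nucleotide. HSP90 dimers act later, on nearly folded clients such as kinases and steroid hormone receptors, and HSF1 is the transcription factor that induces many of these genes on heat or proteotoxic stress. HSP90 is of particular bearing here, because it holds the ligand-binding domain of the estrogen receptor, and what is fused to it, in an inactive complex until hormone binds.

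RNA was sequenced from Lys-GFP-ER-HoxA9 cells, C57Bl/6 mouse granulocyte-macrophage progenitors immortalised by HOXA9 fused to the hormone-binding part of a mutant estrogen receptor (iGMPs), which also carry GFP driven by the lysozyme promoter. CAF-1 OFF cells received 500 µM IPTG for 24 h to switch on a hairpin against Chaf1b, whose product is part of the CAF-1 histone chaperone, and the control cells also received IPTG for 24 h. Both were kept in stem cell factor and 150 ng/ml estradiol, the hormone that keeps the fusion active. HOXA9 OFF cells were washed free of estradiol and cultured without it for 24 h, which switches the fusion off. Whether HOXA9 OFF cells also received IPTG was not stated, so IPTG and estradiol cannot be told apart in the comparisons with HOXA9 OFF. Each group had 2 libraries, the study worked with clonal lines that the labels do not tie to these libraries, and the labels do not say whether the libraries of a group were separate cultures, so p-values measure the spread between these libraries, which may be technical.

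Reads counted in genes numbered between 16773560 and 25170898 per library, at which 3 counts equal 0.118 to 0.182 CPM (counts scaled to a common library size). Chaf1b, the target of the hairpin, averaged 97.5 ± 10.7 CPM in the controls and fell to 14.9 ± 4.01 CPM when CAF-1 was OFF (SD, n = 2, edgeR FDR 0.0198). HOXA9 OFF, with 63 ± 2.30 CPM, was called lower than control in this gene too (edgeR FDR 0.0396, log2 fold change -0.63). Markers of the progenitor state summed to 11900 to 17600 CPM over 8 genes, with Mpo the largest part in every library. Lymphoid markers summed to at most 7.74 CPM and erythroid markers to at most 4.88 CPM. In bulk RNA, fewer cells of a type and less RNA per cell cannot be told apart.

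The genes differed widely in level. Per kilobase of the longest coding transcript, the control means (SD, n = 2) ran from 1990 ± 171 CPM for Hsp90ab1, the constitutive cytosolic HSP90, through 254 ± 18 CPM for Hspa8, the constitutive HSP70 (HSC70), to 126 ± 0.612 CPM for Hspa4, an HSP110 family member. Hsp90aa1, the stress-inducible HSP90, followed at 105 ± 0.647 CPM per kilobase and Hsph1, also of the HSP110 family, at 56.8 ± 3.72. Hsf1 stood at 35.0 ± 0.438, Dnajb1 at 30.5 ± 2.06 and Dnaja1 at 11.4 ± 0.277 CPM per kilobase, with Hspa1b, an inducible HSP70, at 0.344 ± 0.0111. Hspa1a came last, with 0 in each control library. All of these control ranges were separate from their neighbours in the order, and none of the differences in level between genes was tested. Hsp90ab1 alone took between 0.359% and 0.539% of all gene counts in a library. By raw count it ranked first or second in the control and CAF-1 OFF libraries but 7 and 5 in HOXA9 OFF.

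Part of that order depends on which reads could be counted, since the counting left out reads that align to several places. The mouse genome holds processed copies of several of these genes, and every 50-base stretch of each longest coding transcript was therefore searched in the NCBIM37 genome. An exact copy elsewhere was found for 75.7% of the stretches of Hspa8 and for 73.1% of those of Hsp90aa1, but for 8.3% of those of Hsp90ab1 and 0% of those of Hspa4, Hsph1 and Hsf1. For 100-base stretches the shares were 63.8% for Hspa8, 60.4% for Hsp90aa1 and 0% for Hsp90ab1. When CPM were divided by the number of single-copy 50-base stretches instead of by length, Hsp90aa1 moved above Hspa4, with control means of 395 ± 2.44 against 128 ± 0.619 CPM per 1000 such stretches (SD, n = 2). Hsp90ab1 stayed first at 2220 ± 190 and Hspa8 second at 1070 ± 75.8 CPM per 1000 single-copy stretches. The read length was not given in the sources used here, so neither scale is exact. Comparisons of 1 gene between groups leave out the same stretches, but whether the uncounted reads changed as the counted ones did was not tested. The levels of Hspa8, Hsp90aa1, Hspa1a, Hspa1b and Dnaja1 are lower than the RNA behind them by unknown amounts.

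**Figure D1:**
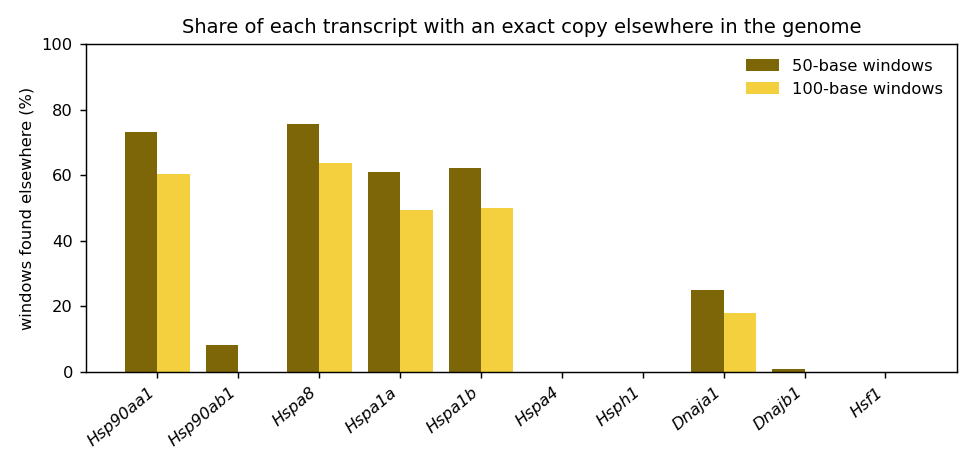
Share (%) of all 50-base (dark bars) and 100-base (light bars) stretches of each gene's longest coding transcript that have an exact copy elsewhere in the genome. Hspa8 and Hsp90aa1 have the highest shares, at 75.7% and 73.1% for 50 bases, whereas Hspa4, Hsph1 and Hsf1 have none.

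All 10 genes are annotated as protein coding on NCBIM37. Hsp90aa1 spans chr12:111928815-111940938 on the minus strand, Hsp90ab1 chr17:45704724-45710220 (minus), Hspa8 chr9:40609067-40613283 (plus) and Hspa4 chr11:53073316-53113959 (minus). Hsph1 spans chr5:150416862-150438951 (minus), Dnaja1 chr4:40669183-40684182 (plus), Dnajb1 chr8:86132074-86135801 (plus) and Hsf1 chr15:76307865-76331402 (plus). The neighbouring pair Hspa1a, at chr17:35106144-35109069, and Hspa1b, at chr17:35093381-35096183, lies on the minus strand. Over all annotated transcripts, exons of Dnaja1 share 608 bases with Smu1 and those of Hspa1a 552 bases with Gm20481, both on the opposite strand. Exons of Hspa8, pooled likewise, overlap 3 small nucleolar RNA genes (Snord14c, Snord14d and Snord14e). Which transcripts of Hspa8 hold these exons was not examined. The strand setting of the counting was not stated, so the Dnaja1 and Hspa1a counts are uncertain to that extent.

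The inducible genes of the set are known targets of HSF1, which binds inverted repeats of the unit GAA. These were searched in the RefSeq promoters (250 bases before to 50 after each start, matched exactly to NCBIM37), as 3 units (GAANNTTCNNGAA or TTCNNGAANNTTC) or as 2 units (GAANNTTC or TTCNNGAA, which every 3-unit match also contains), which covers both strands. Promoters were at hand for 6 of the 10 genes. Hsp90aa1, Hsp90ab1, Hspa8 and Hsf1 were not analysed here. The stretches that hold a match are shown because they carry the letters of the heat shock element, with the match in capitals.
Hspa1a: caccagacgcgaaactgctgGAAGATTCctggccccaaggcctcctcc
Hspa1b: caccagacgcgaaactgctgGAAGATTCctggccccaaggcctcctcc
Dnaja1: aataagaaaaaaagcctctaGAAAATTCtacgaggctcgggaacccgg
Hsph1: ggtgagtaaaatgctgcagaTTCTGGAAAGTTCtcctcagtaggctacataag
The first pair, at chr17:35109178-35109225 and chr17:35096260-35096307 (minus strand), was identical in all 48 letters, with the match beginning 104 bases before each start. The Dnaja1 match, at chr4:40669357-40669404 (plus), began 124 bases before 1 of its 3 annotated starts, with no match in the windows of the other two, and that of Hsph1, at chr5:150438843-150438895 (minus), 15 bases after one annotated start and 36 after another. A further 2-unit match before these starts of Hsph1 is not printed. Hsph1 was the only one of the 6 with a 3-unit match, which 0.603% of all 32851 promoters hold, and 15.1% of all promoters hold a 2-unit match. No match was found in the windows of Hspa4 and Dnajb1.

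Hspa1a and Hspa1b, which encode near-identical inducible HSP70 proteins, had few or no counts in every group. The doubt over the strand setting given above applies to the Hspa1a counts. Hspa1a counts were 0 and 0 in the controls, 1 and 0 with CAF-1 OFF and 2 and 0 with HOXA9 OFF, all under the 3 counts used as a floor. Hspa1b counts were 24 and 17 in the controls, 25 and 33 with CAF-1 OFF and 18 and 10 with HOXA9 OFF. The control mean of Hspa1b was 0.965 ± 0.0312 CPM (SD, n = 2). Of the 50-base stretches of Hspa1a, 59.4% were found in Hspa1b, so reads of the pair that were not unique were in neither count. Whatever RNA was lost this way, the unique part of Hspa1b stayed under 2 CPM in all 6 libraries. Hspa1a was removed by the filter on low counts, which left 9 of the 10 genes for testing.

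In CAF-1 OFF against control, which asks what the loss of CAF-1 does within 24 h, none of the chaperone genes was called. Of the 9 tested, 0 passed a fold change of 1.5 at a false discovery rate (FDR) under 0.05 in the edgeR quasi-likelihood test, and 0 passed the FDR alone, where 0.0321% of all genes tested passed by either rule. The count was also 0 by DESeq2 and by the edgeR exact test, which called 192 and 243 genes in all, and 2 of the 9 (Dnajb1 and Hsf1) had an unadjusted p under 0.05, as did 1330 of all 12460 genes. The median log2 fold change of the 9 was -0.06, against 0 over all genes tested, with 7 of 9 below 0. For 4 genes both CAF-1 OFF libraries lay below both controls and for 2 both lay above, where 20% and 20.1% of all genes did so.

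Hsp90aa1 stood at 340 and 319 CPM in CAF-1 OFF against 342 and 345 CPM in control, and its log2 fold change was -0.06 ± 0.09 (SE), with a 95% interval of -0.28 to 0.16. Hsp90ab1 stood at 4640 and 4700 CPM against 5330 and 4720 CPM, with an interval of -0.32 to 0.11. In both genes the CAF-1 OFF libraries lay below the controls, neither difference passed the test, and the intervals leave out a 1.5-fold change in either direction. A 1.5-fold change was also left out, and the test not passed, for Hspa8 (interval -0.24 to 0.23), Hspa4 (-0.30 to 0.23), Hsph1 (-0.45 to 0.27) and Dnaja1 (-0.08 to 0.43), all on the log2 scale. Hspa8, Hspa4 and Hsph1 overlapped between the groups, whereas Dnaja1 lay above the controls (75.8 and 69.4 CPM against 63.2 and 65.4 CPM).

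The other 3 genes lay further from 0. Dnajb1, the J protein that HSF1 induces on stress, stood at 60.4 and 50.4 CPM against 65.7 and 72.3 CPM in control, a log2 fold change of -0.32 ± 0.13 (SE, edgeR FDR 0.446) with an interval of -0.61 to -0.02. Hsf1 stood at 64.5 and 59.5 CPM against 72.9 and 74.2 CPM, a log2 fold change of -0.25 ± 0.10 (SE, edgeR FDR 0.453). Both genes were lower in both CAF-1 OFF libraries than in either control, but neither passed the adjusted threshold. Hspa1b was higher, at 1.3 and 1.67 CPM against 0.943 and 0.987 CPM, and its interval of -0.33 to 1.57 on the log2 scale was too wide to show a difference at this depth.

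**Figure D2:**
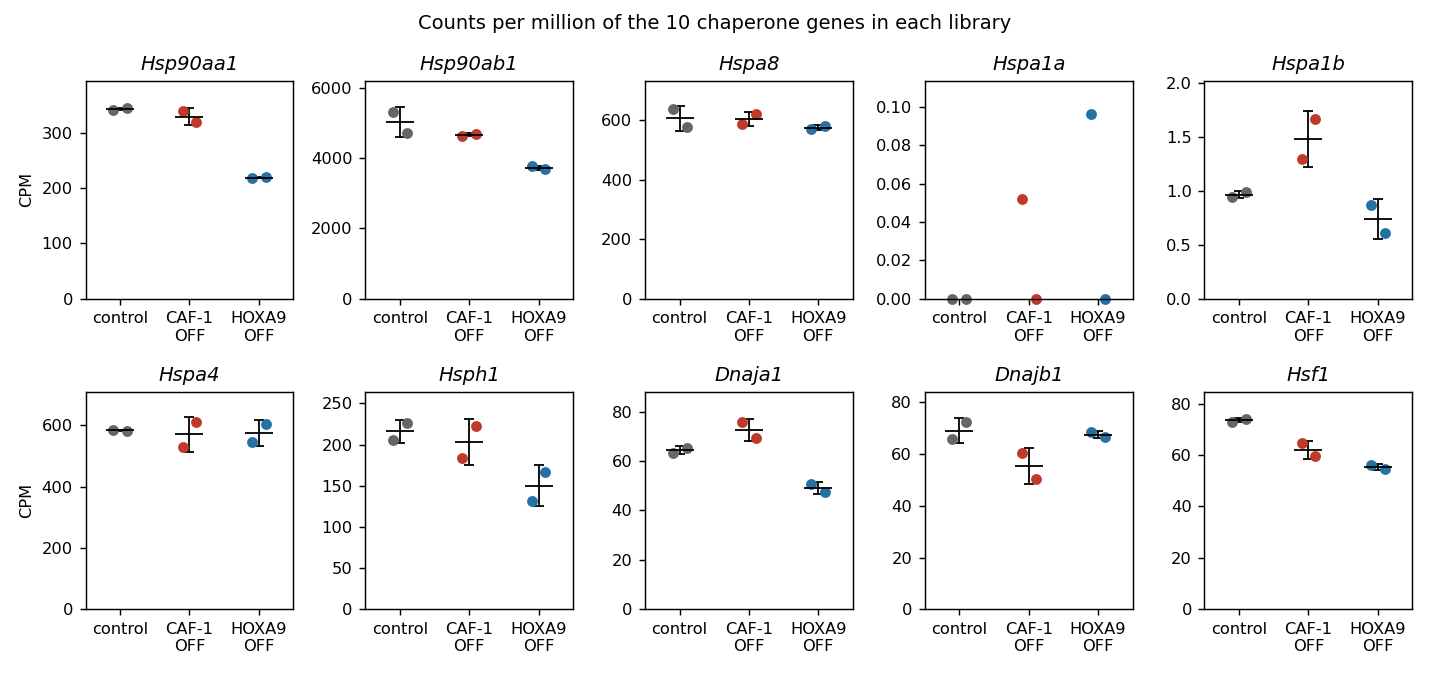
CPM (linear axis from 0, own scale in each panel) of the 10 genes in the 2 libraries (points) of control, CAF-1 OFF and HOXA9 OFF, with bars for the mean and SD of the 9 genes tested. Hsp90aa1 is near 340 CPM in control and near 220 CPM in both HOXA9 OFF libraries, and Hspa1a is at 0.0965 CPM or less throughout.

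HOXA9 OFF cells, the reference for normal myeloid differentiation in this system, had lower levels of both HSP90 genes than control. Hsp90aa1 stood at 342 and 345 CPM in control and fell to 218 and 220 CPM in HOXA9 OFF, a log2 fold change of -0.65 ± 0.09 (SE, edgeR FDR 0.00365), which is 1.57-fold. The HOXA9 OFF libraries lay below the other 4, the lowest of which was a CAF-1 OFF library at 319 CPM. Hsp90ab1 was at 5330 and 4720 CPM in control and at 3780 and 3690 CPM in HOXA9 OFF, a log2 fold change of -0.43 ± 0.09 (SE, edgeR FDR 0.0147). It was thus lower by 1.35-fold, past the FDR but short of the fold required for a call.

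Of the 9 genes tested, 1 was called lower and 0 were called higher in HOXA9 OFF against control, where 8.97% of all genes were called lower and 13% higher. By the FDR alone 5 were lower and 0 higher, where 13.8% of all genes were lower and 16% higher. That count rested on all 4 libraries compared. With any 1 of them left out, Hsp90aa1 stayed past the FDR (edgeR FDR at most 0.0332), but of the other 4 genes only Hsp90ab1 did without the second control (0.0362) and only Hsph1 without the second HOXA9 OFF library (0.0416). None of the other 4 did without the first control or the first HOXA9 OFF library. The median log2 fold change of the 9 was -0.38 against 0 over all genes tested, and all 9 estimates were below 0, although those of Hspa8, Hspa1b, Hspa4 and Dnajb1 lay within 1 SE of 0. Both HOXA9 OFF libraries lay below both controls in 6 of the 9, where 35.9% of all genes did so. With library size alone as the scaling, the median of all genes moved to -0.08 and that of the 9 to -0.47, and the calls over all genes went from 1622 higher and 1118 lower to 1434 higher and 1409 lower.

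The other 3 genes past the FDR were a nucleotide exchange factor, a J protein and the stress regulator itself. Hsph1 stood at 206 and 226 CPM in control and 132 and 167 CPM in HOXA9 OFF, a log2 fold change of -0.53 ± 0.15 (SE, edgeR FDR 0.0399). Dnaja1, which serves the constitutive HSP70 cycle, stood at 63.2 and 65.4 CPM against 50.9 and 47.6 CPM, a log2 fold change of -0.38 ± 0.11 (SE, edgeR FDR 0.0355). Hsf1 stood at 72.9 and 74.2 CPM against 56.1 and 54.4 CPM, a log2 fold change of -0.41 ± 0.10 (SE, edgeR FDR 0.0242). The HOXA9 OFF and control libraries did not overlap in these 3 genes, and all 3 changes were under 1.5-fold. Hsph1 passed the fold as well with library size alone as the scaling (log2 fold change -0.61, edgeR FDR 0.0295) and without the second HOXA9 OFF library (-0.70, edgeR FDR 0.0416), whereas without the first control its edgeR FDR was 0.0832, that of Dnaja1 0.115 and that of Hsf1 0.097. 

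The constitutive HSP70, the other HSP110 gene and the inducible J protein showed no such difference. Hspa8 stood at 638 and 577 CPM in control and 571 and 581 CPM in HOXA9 OFF, with a 95% interval of -0.31 to 0.16 on the log2 scale. Hspa4 stood at 585 and 581 CPM against 545 and 604 CPM, with an interval of -0.28 to 0.24. Dnajb1 stood at 65.7 and 72.3 CPM against 68.3 and 66.4 CPM, with an interval of -0.33 to 0.26. In each of these 3 genes the libraries of the groups overlapped, and the intervals leave out a 1.5-fold change. Hspa1b, at 0.868 and 0.606 CPM in HOXA9 OFF, had an interval of -1.38 to 0.63, which does not.

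Markers of mature neutrophils and monocytes were higher in sum in HOXA9 OFF, and less so in CAF-1 OFF. Against control, CAF-1 OFF had 9 of the 9 tested above 0 in estimate (median log2 fold change 0.98), with 0 called. Their summed level over 10 genes ran from 76.2 to 84.2 CPM in the controls, from 111 to 134 CPM with CAF-1 OFF and from 1130 to 1520 CPM with HOXA9 OFF, and all 9 of those tested were called higher in HOXA9 OFF against control, with none at 0 in every library. Stromal markers summed to 258 to 261 CPM in control and 434 to 458 CPM in HOXA9 OFF, mostly from Pecam1, with 2 of the 6 at or under 3 counts in every library. Of the 3 tested, only Pecam1 was higher in HOXA9 OFF (log2 fold change 0.86). Pdgfrb (-0.55) and Col1a2 (-0.14) were lower in estimate, so the sum does not describe the list. Of the 8 progenitor markers, 4 were called lower in HOXA9 OFF against control, namely Cd34 (log2 fold change -1.86), Kit (-1.16), Myb (-0.68) and Ctsg (-0.68), and 1 higher, Fcgr3 (1.63). The part of these markers in the chaperone differences was not tested.

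**Figure D3:**
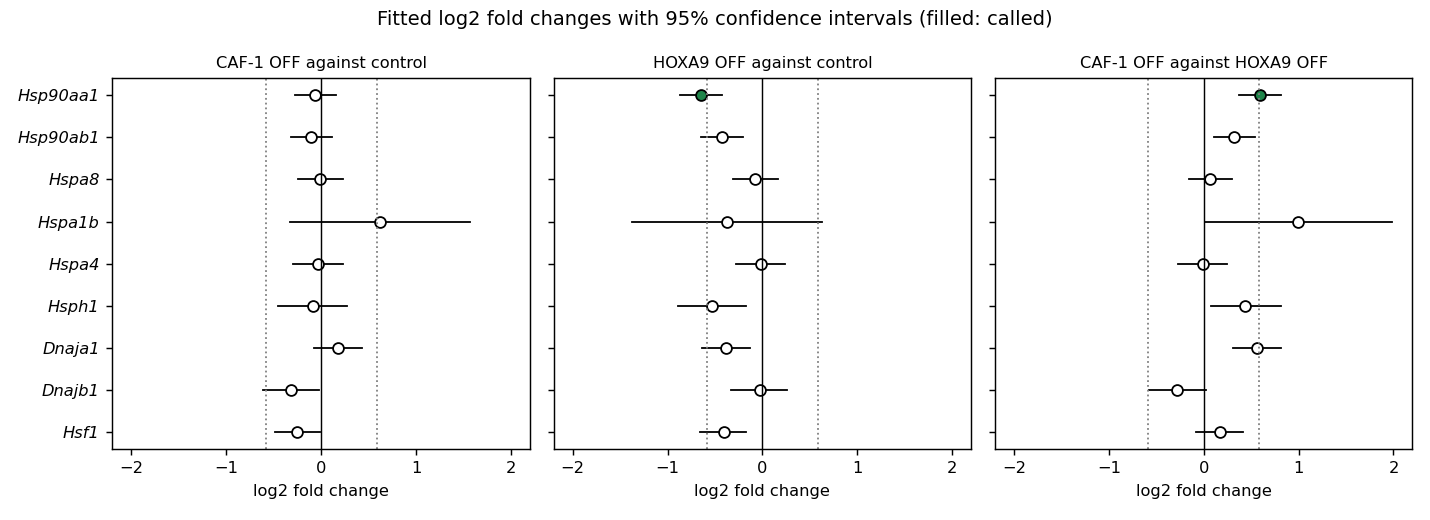
Log2 fold changes of the 9 genes tested in each of the 3 comparisons, with bars for the 95% intervals of the edgeR quasi-likelihood fit, dotted lines at 1.5-fold and filled symbols for genes called at 1.5-fold and FDR under 0.05. Hsp90aa1 is the one filled symbol, at -0.65 in HOXA9 OFF against control and at 0.59 in CAF-1 OFF against HOXA9 OFF, and the CAF-1 OFF against control estimates lie between -0.32 and 0.62.

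The 2 treatments were also compared directly. That comparison shares its HOXA9 OFF libraries with the one above, so their values are not separate evidence. Relative to HOXA9 OFF, Hsp90aa1 was called higher in CAF-1 OFF, with a log2 fold change of 0.59 ± 0.09 (SE, edgeR FDR 0.00528), which is 1.51-fold. The call sat at the edge of the fold required and was lost without the first CAF-1 OFF library (0.54, edgeR FDR 0.0197). That library also stood apart in Bag3, at 19 counts against 114 to 192 in the other 5, and in the summed level of mast cell and basophil markers, at 584 CPM against 165 to 302 CPM, and the part of either in the call was not tested. It was the 1 gene called higher of 9, with 0 called lower, where 9.56% of all genes were called higher and 12.6% lower.

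By the FDR alone CAF-1 OFF had 3 of the 9 higher, where 14.3% of all genes were. Beside Hsp90aa1 these were Hsp90ab1, with a log2 difference of 0.32 ± 0.09 (SE, edgeR FDR 0.0378), and Dnaja1, with 0.56 ± 0.11 (SE, edgeR FDR 0.0105). Dnaja1 lay above control in both CAF-1 OFF libraries and below it in both HOXA9 OFF libraries. It also passed the fold with library size alone as the scaling (0.64, edgeR FDR 0.00617) and without the second CAF-1 OFF library (0.64, edgeR FDR 0.0167). Without a HOXA9 OFF library the edgeR FDR of Dnaja1 rose to 0.0524 (first left out) and 0.079 (second left out). Hsp90ab1 missed the FDR without any 1 of the 4 libraries compared (edgeR FDR 0.0629 to 0.164), with no filter on low counts (0.0535) and in a fit to those 4 libraries (0.0506). Hsph1 missed the FDR in the main fit (0.44, edgeR FDR 0.0684). It passed with library size alone (edgeR FDR 0.0491), no filter (0.0147), the edgeR exact test (0.0371) and DESeq2 (DESeq2 FDR 0.0301). It missed again with DESeq2 size factors (edgeR FDR 0.0623) and a mean of at least 5 CPM (0.0605), and ran from 0.29 to 0.62 without 1 library. The median log2 difference of the 9 was 0.32, against 0 over all genes tested. With library size alone these medians were 0.40 and 0.08.

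Ratios of counts within a library do not depend on how libraries are scaled to each other. The ratio of Hsp90aa1 to Hspa8 counts was 0.537 and 0.598 in control, 0.579 and 0.512 in CAF-1 OFF, and 0.382 and 0.378 in HOXA9 OFF. The ratio of Hsph1 to Hspa4 counts was likewise 0.352 and 0.388 in control, 0.347 and 0.365 in CAF-1 OFF, and 0.242 and 0.276 in HOXA9 OFF. In both ratios CAF-1 OFF overlapped control and HOXA9 OFF lay below all other libraries. Hsp90ab1 to Hspa8 counts gave 8.35 and 8.19 in control, 7.91 and 7.55 with CAF-1 OFF and 6.62 and 6.35 with HOXA9 OFF, so there CAF-1 OFF lay below control without overlap. The ratio of Hsp90ab1 to Hsp90aa1 counts went the other way, at 15.6 and 13.7 in control, 13.6 and 14.7 with CAF-1 OFF and 17.3 and 16.8 with HOXA9 OFF, the highest of the 6. The J protein ratio behaved differently, since Dnaja1 to Dnajb1 counts gave 0.962 and 0.904 in control, 1.25 and 1.38 with CAF-1 OFF and 0.745 and 0.717 with HOXA9 OFF, so that no groups overlapped and the control lay between the others. With 2 libraries a side, the smallest two-sided p of an exact permutation test is 0.333, so these ratios are given without a test.

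The cytosolic HSP90 was also set against Hsp90b1, its counterpart in the endoplasmic reticulum (ER). The ratio of Hsp90ab1 to Hsp90b1 counts was 3.58 and 3.53 in control, 2.81 and 2.57 in CAF-1 OFF, and 2.47 and 2.41 in HOXA9 OFF. Both treatments lay below control without overlap. In CAF-1 OFF the difference was mostly in Hsp90b1, which stood at 1650 and 1830 CPM against 1490 and 1340 CPM in control (log2 fold change 0.30 ± 0.10, edgeR FDR 0.363), whereas in HOXA9 OFF it was mostly in Hsp90ab1.

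**Figure D4:**
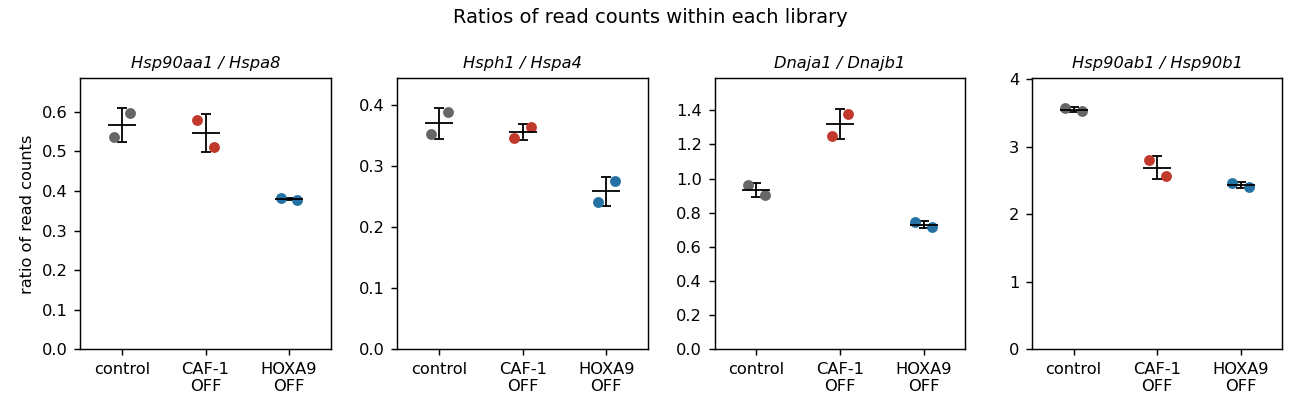
Ratios of read counts (linear axes from 0) of 4 gene pairs within each library (points), with bars for the mean and SD of the 2 libraries per group. HOXA9 OFF lies lowest in all 4 pairs drawn, and Dnaja1 to Dnajb1 is higher in CAF-1 OFF (1.25 and 1.38) than in control (0.962 and 0.904).

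HSP90 works with cochaperones that load clients, set the pace of its ATP cycle or bind in receptor complexes, and 20 of their genes were tested. In HOXA9 OFF against control all 20 were lower in estimate, with a median log2 fold change of -0.39, 11 passed the FDR, all lower, where 13.8% of all genes did, and 2 were called lower, where 8.97% of all genes were. The count of calls was therefore near the background. The called genes were Ppid, which encodes cyclophilin 40 (log2 fold change -0.88, edgeR FDR 0.00198), and Fkbp4, which encodes FKBP52 (-0.84, edgeR FDR 0.00247). Both are immunophilins found in steroid receptor complexes with HSP90. Fkbp4 fell from 657 and 697 to 389 and 370 CPM, and Ppid from 169 and 169 CPM to 86.1 and 97.2 CPM. Against control, CAF-1 OFF had 0 of the 20 called in the edgeR test, with a median of -0.06, and Fkbp4 (723 and 635 CPM) and Ppid (165 and 171 CPM) overlapped control. In the direct comparison, where 9.56% of all genes were called higher, CAF-1 OFF had 3 of the 20 higher, which were these 2 (0.84 and 0.87) and Aarsd1 (0.60, edgeR FDR 0.0123).

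Among 22 other genes of the HSP70 and HSP110 system tested, 2 were called lower and 2 higher in HOXA9 OFF against control, near or under the 8.97% and 13% of all genes. Bag2, which promotes nucleotide exchange on HSP70, fell by 0.91 on the log2 scale (edgeR FDR 0.00215), and Dnajc2, a ribosome-associated J protein, by 0.72 (edgeR FDR 0.00687). The J protein genes Dnajb5 and Dnajc5, the latter found on secretory vesicles, both rose by 0.92 (edgeR FDR 0.0262 and 0.0049). The median of the 22 was -0.18. None of them was called between CAF-1 OFF and control, where the median was 0.02. The same 4 genes were called in the direct comparison, Bag2 (0.97) and Dnajc2 (0.77) higher in CAF-1 OFF and Dnajc5 (-1.06) and Dnajb5 (-0.91) lower.

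Small heat shock proteins were mostly silent. Of 8 small heat shock protein genes only Hspb6 passed the filter on low counts, and Hspb1 had 0 counts in all 6 libraries. Of 5 further heat shock factors and regulators 2 passed it, Hsf2 and Hsbp1, whose product binds HSF1, and neither was called in any of the 3 comparisons. Hsf2 stood at 14.1 to 16.7 CPM in CAF-1 OFF and control together and at 12.4 and 15.8 CPM in HOXA9 OFF. Hsbp1 was more abundant, at 128 and 144 CPM in the controls, 170 and 131 CPM with CAF-1 OFF and 112 and 110 CPM with HOXA9 OFF.

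Chaperones of other folding systems were counted in the same way in HOXA9 OFF against control, where 8.97% of all genes were called lower and 13% higher, and 13.8% and 16% by the FDR alone. Of 14 genes of the cytosolic chaperonin TRiC and its partner prefoldin, 4 were called lower (Cct3 -0.73, Cct6a -0.63, Pfdn2 -0.59 and Cct4 -0.59 on the log2 scale), and 11 passed the FDR, all lower, with a median of -0.50. Of 12 mitochondrial chaperone and protease genes, 7 were called lower, with a median of -0.71, led by Hspe1, which encodes the HSP10 cofactor of HSP60 (127 and 149 CPM in control, 66.1 and 72.1 CPM in HOXA9 OFF, edgeR FDR 0.00278), Clpp (-0.91), Lonp1 (-0.90) and Hspa9, the mitochondrial HSP70 (-0.87). Of 17 ER chaperone genes, 0 were called lower and 2 were called higher, Dnajb9 (0.74) and Dnajc3 (0.69), J proteins induced by ER stress, and 8 passed the FDR, all higher, with a median of 0.25. The share of the ER list called higher was thus no greater than that of all genes. Differences between the lists were not tested.

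Over all 7 of these chaperone lists, 88 of 99 genes were tested, and in HOXA9 OFF against control 4 were called higher and 15 lower, again beside 13% and 8.97% of all genes. Between CAF-1 OFF and control 0 were called, with medians of -0.02 for TRiC and prefoldin, -0.16 for the mitochondrial list and 0.21 for the ER list, in which 16 of 17 estimates were above 0. DESeq2, the edgeR exact test and the fit with no filter on low counts each called 1 of the 88, the ER reductase gene Dnajc10, at 523 and 730 CPM against 380 and 403 CPM in control (log2 fold change 0.68 ± 0.16 with edgeR FDR 0.253 in the quasi-likelihood test). In the direct comparison 10 were called higher and 3 lower in CAF-1 OFF, where 9.56% and 12.6% of all genes were. The higher count rose to 21 with library size alone and to 19 without the second CAF-1 OFF library, where 1475 and 1200 of all genes were called higher, against 1191 with all libraries and TMM scaling. Beside those named above they were Pfdn2 (0.66), Dnajc10 (0.90), Hspe1 (1.02), Hspd1 (0.88) and Trap1 (0.59) among the higher, and P4hb (-0.62), an ER disulfide isomerase, among the lower.

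**Figure D5:**
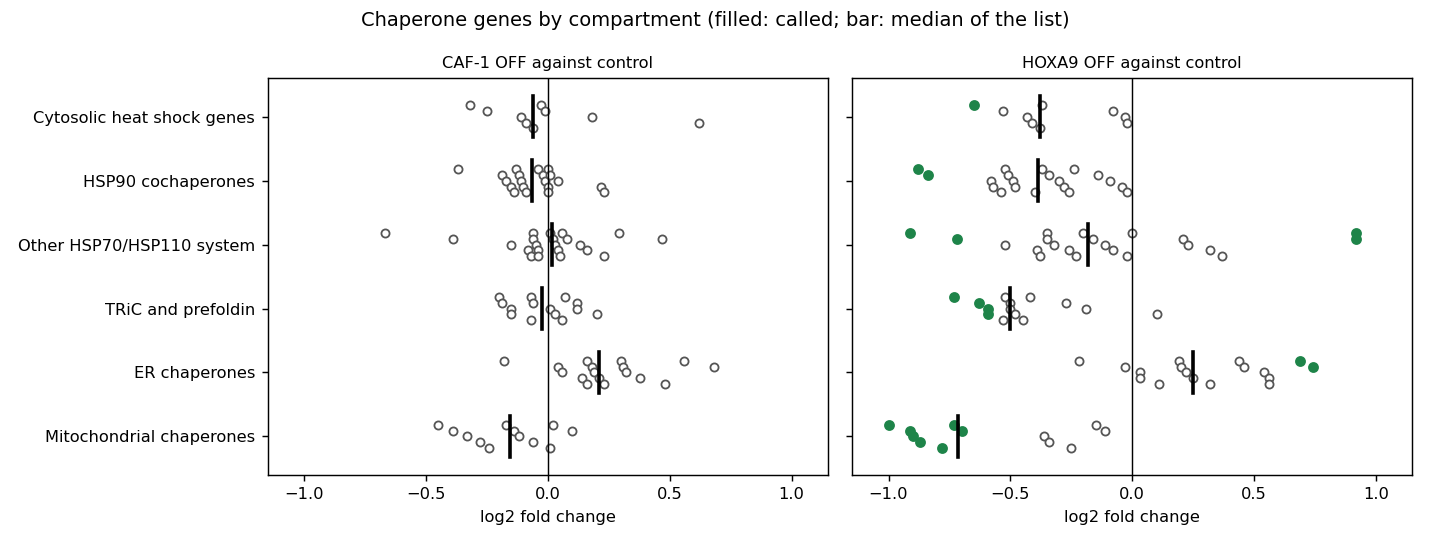
Log2 fold changes against control of the tested genes (points) in the 9 heat shock genes and 5 wider chaperone lists, for CAF-1 OFF and HOXA9 OFF, with a bar at the median of each list and filled points for genes called at 1.5-fold and FDR under 0.05. In HOXA9 OFF against control the mitochondrial list has the lowest median (-0.71) and the ER list the highest (0.25) of those drawn, and no gene is filled in CAF-1 OFF against control.

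The client that HSP90 holds in this system was read only through the genes that the fusion shares. Counts assigned to Esr1, which encodes the estrogen receptor and cannot be split here from the receptor part of the fusion, were 131 and 99.8 CPM in control, 83.4 and 130 CPM in CAF-1 OFF, and 180 and 179 CPM in HOXA9 OFF. The log2 fold change in HOXA9 OFF against control was 0.64 ± 0.22 (SE, edgeR FDR 0.0712), and in CAF-1 OFF against HOXA9 OFF it was -0.75 ± 0.22 (edgeR FDR 0.044). Counts of Hoxa9 were 277 and 214 CPM in control, 204 and 271 CPM in CAF-1 OFF, and 356 and 362 CPM in HOXA9 OFF. The log2 fold change of Hoxa9 in HOXA9 OFF against control was 0.55 ± 0.17 (SE, edgeR FDR 0.0535), which did not pass, and in CAF-1 OFF against HOXA9 OFF it was -0.60 ± 0.17 (edgeR FDR 0.0412), which was called. In counts scaled to library size, both genes were highest in the libraries in which Hsp90aa1 and Hsp90ab1 were lowest. RNA counts give no measure of the protein complex.

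The genes whose pattern over the 6 libraries was most like that of the chaperones were sought among 9607 genes with a mean of at least 5 CPM. The pattern was the median over the 9 tested genes of the standardised log2 CPM, which was 0.49 and 0.44 in control, 0.16 and 0.69 in CAF-1 OFF, and -0.95 and -1.12 in HOXA9 OFF. The most like were Mblac2 (Pearson r 0.998), Ddx10 (0.997), Magi1, Ercc8 and Tada2a (each 0.996), over 6 libraries that fall into groups and share their scaling, so the coefficients are a description. The chaperones themselves followed this pattern to different degrees, from 0.947 for Hsp90aa1 and 0.932 for Hsp90ab1 to 0.168 for Hspa4 and -0.428 for Dnajb1.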

How the data were processed

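The authors deposited 1 table of unnormalized read counts per library, by gene symbol, made by aligning reads to mouse mm9 with STAR and counting them with HTSeq. The annotation and the strand setting of the counting are not given in the sources used here. Each file ended with 5 tally lines that name no gene. They were left out of all totals, and the largest, alignments that were not unique, came to 89.6 to 107 per 100 gene counts.

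The analysis used edgeR 4.0.16 in R 4.3.3 (limma 3.58.1). After filterByExpr, 12460 of 34199 genes remained, which were scaled by TMM (factors 0.954 to 1.03), and fitted over all 6 libraries with 1 mean per group by the quasi-likelihood test, with Benjamini-Hochberg adjustment over all of them. A gene was called at 1.5-fold and FDR under 0.05. CPM use TMM-scaled sizes. Alternatives were DESeq2 1.42.0, other scalings, filters and thresholds, the 4 libraries compared, a replicate block and leaving out each library. The 3-count floor covers counting error only.

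The 10 genes and the lists were chosen with earlier results of these data known. Named genes outside the 10 are, per list and direction, up to 4 called genes with the largest fold change and a mean of at least 5 CPM, and the 5 with the most similar pattern. Outside that rule, Hsp90b1, Hspb1, Hsf2, Hsbp1, Bag3, the progenitor markers, Chac1, Ddit3, Ddit4, Sesn2, Egr1, Fkbp4 and Ppid values in CAF-1 OFF, Dnajc10 in CAF-1 OFF against control and the count ratios were chosen after values were seen. Pfdn6 was found under its older symbol H2-Ke2. Coordinates are 1-based on NCBIM37 (GENCODE vM1), the assembly that mm9 names, and promoter sequences are from RefSeq, placed by exact match.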

Additional observations from a re-analysis of the deposited data

How the results depend on the processing

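Over the alternatives, 329 of 348 refitted fold changes of the 9 genes kept their direction and their side of the threshold, 4 gained a call, 1 lost it and 14 changed sign near 0 without a call. Hsp90aa1 kept its call in HOXA9 OFF against control under all 13 refits (-0.73 to -0.65), whereas the FDR reached 0.0894 for Hsp90ab1, 0.206 for Dnaja1, 0.146 for Hsf1 and 0.201 for Hsph1, and in CAF-1 OFF against HOXA9 OFF 0.164 for Hsp90ab1 and 0.079 for Dnaja1. The causes of these shifts were not tested.

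Calls among the 9 genes in HOXA9 OFF against control went from 1 to 0 at 2-fold and FDR under 0.01, 5 with no fold minimum and 2 with library size alone. In CAF-1 OFF against HOXA9 OFF they went from 1 to 0, 3 and 2 under the same settings. Leaving out a library gave 1 to 2 and 0 to 2. In the wider lists the counts were 0 and 43 against 19 in HOXA9 OFF against control at the stricter and looser thresholds. They were 2 and 38 against 13, 23 with library size alone, and 9 to 22 without 1 library in CAF-1 OFF against HOXA9 OFF. For CAF-1 OFF against control, DESeq2, the exact test and no filter each gave 1 against 0.

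Over all genes, CAF-1 OFF against control gave 4 calls, 0 at the stricter threshold, 192 with DESeq2, 243 with the exact test, 378 with no filter, 9 with the 4 libraries compared and 0 to 8 without 1 library. HOXA9 OFF against control gave 2740, 987 at the stricter threshold and 1602 to 2128 without 1 library. CAF-1 OFF against HOXA9 OFF gave 2755, 948 and 1711 to 2718.

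Sign changes without a call were as follows. Hspa8 in CAF-1 OFF against control was at 0 with DESeq2 and its size factors, 0.01 with a mean of at least 5 CPM, and -0.07 to 0.07 without 1 library. Hspa4 in CAF-1 OFF against HOXA9 OFF was at 0.07 with library size alone, 0.01 with the 4 libraries compared and -0.10 to 0.09 without 1 library. Without 1 library, CAF-1 OFF against control ran from -0.12 to 0.06 for Hspa4, -0.22 to 0.04 for Hsph1 and -0.11 to 0 for Hsp90aa1, and HOXA9 OFF against control from -0.11 to 0.04 for Dnajb1 and -0.09 to 0.05 for Hspa4.

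Deviations of same-numbered libraries correlated across genes at -0.237 in CAF-1 OFF against control and 0.476 in HOXA9 OFF against control. In CAF-1 OFF against HOXA9 OFF the value was 0.034. The replicate numbers are not said to mark a batch, so the main fit held no block, and whether same-numbered libraries shared a batch was not tested. With the replicate block the 9 genes had 0, 1 and 1 calls and all genes 2, 2680 and 2684, for CAF-1 OFF and HOXA9 OFF against control and for one against the other, in that order, and Dnaja1 in HOXA9 OFF against control had an edgeR FDR of 0.0553. A block with crossed numbers, added after the data were seen, gave 71 calls over all genes in CAF-1 OFF against control. At 10 to 33 counts a library, Hspa1b was limited by depth.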

Other observations

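Immediate early genes respond to handling and growth signals within minutes. Of 9 tested in HOXA9 OFF against control, where 13% of all genes were called higher and 8.97% lower, 3 with a mean of at least 5 CPM were called higher, Fos (log2 fold change 2.30, edgeR FDR 0.00196), Zfp36 (2.24, edgeR FDR 0.00175) and Jun (1.81, edgeR FDR 0.00471). Egr1, under 5 CPM, was called lower (-1.11). The edgeR test called 0 of the 9 between CAF-1 OFF and control, with a median of 0.29. In CAF-1 OFF against HOXA9 OFF, where 4 were called lower and 1 higher beside 12.6% and 9.56% of all genes, Fos (-2.17), Zfp36 (-1.68) and Jun (-1.52) were the lower ones with at least 5 CPM.

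Targets of the integrated stress response, which slows translation when amino acids run short or proteins misfold, were lower in estimate in both comparisons with control, which share the control libraries. In HOXA9 OFF 3 of 7 tested were called, all lower, where 8.97% of all genes were, namely Trib3 (log2 fold change -1.97, edgeR FDR 0.0324), Asns (-0.79, edgeR FDR 0.0154) and, under 5 CPM, Chac1 (-1.68), with a median of -0.69. In CAF-1 OFF 0 of 7 were called by edgeR, 7 of 7 estimates were below 0 and the median was -0.71. The controls themselves were spread in this list, with Trib3 at 83.4 and 165 CPM, Ddit3 at 151 and 216 CPM, Sesn2 at 32.7 and 55.8 CPM and Ddit4 at 6.4 and 21.7 CPM in the first and second control library, and the part of this spread in the estimates was not tested.

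Bag3, a cochaperone gene that HSF1 is known to induce, had 145 and 139 counts in the controls, 19 and 151 with CAF-1 OFF and 114 and 192 with HOXA9 OFF, so the first CAF-1 OFF library stood apart. It is the library without which Hsp90aa1 was no longer called between CAF-1 OFF and HOXA9 OFF.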
